A study of Homo sapiens with 4 samples.

Results

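The genes followed here were 8 markers of neurons, NEFM, NEFH, INA, STMN2, TUBB3, ENO2, SYN1 and SNAP25, together with REST, the repressor that keeps many neuronal genes silent outside the nervous system, and its corepressor RCOR1. They were taken by name, with earlier results of these data known, and all 10 were found among the 28775 promoters of the count table. Chromatin accessibility had been measured by Omni-ATAC in HEK293T cells, a transformed human embryonic kidney line, which in all 4 samples were wild type for MORC2. Cells of the overexpression group had been transfected with pBacMam-MORC2-meGFP, a vector carrying MORC2 fused to a green fluorescent protein, using lipofectamine, and cells of the control group had received lipofectamine alone. Each group had 2 libraries, and the time of transfection stands in the methods of the study and not in the labels. The labels name no empty vector in the control, so the vector and its MORC2 insert cannot be told apart. The study calls replicates of its other ATAC-seq comparison biological and for these groups gives only their number. The p-values therefore measure a spread between libraries pooled over promoters of like abundance, part of which may be technical.

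MORC2 is a nuclear ATPase of the MORC family that acts with the HUSH complex in silencing chromatin, and its mutations cause a form of Charcot-Marie-Tooth disease, an axonal neuropathy. REST is a zinc finger protein that binds a long DNA element, RE1, in and around neuronal genes and recruits histone deacetylases and demethylases through RCOR1 and SIN3 proteins. HEK293 lines are unusual among kidney lines in that neuronal transcripts, neurofilaments among them, have been described in them. ATAC-seq counts insertions of a transposase into open DNA. It reads whether a promoter is accessible, not whether the gene is transcribed.

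The promoter sequences of the genes were read from a set of RefSeq promoter entries for GRCh38.p14. As used here, this set gave entries for 6 of the 10 members, 8 entries in all because REST and TUBB3 have 2 starts each. No entry was read for NEFM, NEFH, STMN2 and SNAP25, which is a limit of the set used and does not mean that RefSeq lacks their promoters. The members with an entry were REST, RCOR1, INA, ENO2, TUBB3 and SYN1. The counts themselves had been made on another assembly, the telomere-to-telomere CHM13, and the table does not say which start its promoter window was centred on. Of these members, SYN1 was the only one whose entry held an exact match to both arms of an RE1. Only exact matches were counted, so an RE1 with other letters or outside the entry would be missed. The sequences below are the stretches just before the start of SYN1, of REST itself, of INA and of TUBB3, the most accessible of the neuronal genes. They are given 5′ to 3′ on the strand of the gene. Capitals mark the RE1 left arm TTCAGCACC, the RE1 right arm GGACAG, the GC box GGGCGG and the cAMP response element TGACGTCA, each on either strand.
SYN1, chrX:47619858-47620107, minus strand: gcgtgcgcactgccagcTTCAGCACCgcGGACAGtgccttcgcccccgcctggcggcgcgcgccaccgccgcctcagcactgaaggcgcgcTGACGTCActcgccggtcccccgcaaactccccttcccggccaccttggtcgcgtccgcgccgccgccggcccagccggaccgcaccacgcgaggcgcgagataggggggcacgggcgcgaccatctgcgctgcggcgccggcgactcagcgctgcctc
REST, first start, chr4:56907650-56907899, plus strand: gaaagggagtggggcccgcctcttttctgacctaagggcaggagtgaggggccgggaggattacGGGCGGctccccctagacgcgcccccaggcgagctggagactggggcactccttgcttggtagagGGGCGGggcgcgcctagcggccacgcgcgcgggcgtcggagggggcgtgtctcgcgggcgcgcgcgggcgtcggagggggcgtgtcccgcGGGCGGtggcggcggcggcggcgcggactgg
INA, chr10:103276888-103277137, plus strand: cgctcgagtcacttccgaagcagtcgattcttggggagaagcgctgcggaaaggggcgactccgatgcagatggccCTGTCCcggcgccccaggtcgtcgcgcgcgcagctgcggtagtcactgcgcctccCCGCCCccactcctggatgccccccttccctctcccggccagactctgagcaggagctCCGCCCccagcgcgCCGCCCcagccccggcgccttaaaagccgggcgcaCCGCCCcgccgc
TUBB3, second start, chr16:89923092-89923341, plus strand: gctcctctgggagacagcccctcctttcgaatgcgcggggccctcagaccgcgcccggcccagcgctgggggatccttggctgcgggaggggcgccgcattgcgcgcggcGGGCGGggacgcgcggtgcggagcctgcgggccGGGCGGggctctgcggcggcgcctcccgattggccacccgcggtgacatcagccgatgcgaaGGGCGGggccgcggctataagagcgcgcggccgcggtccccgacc

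SYN1 encodes synapsin I, a protein of synaptic vesicles. Its entry had TTCAGCACC from 233 bases before the start and GGACAG from 222 bases before it, which leaves 2 bases between the arms, on the plus strand of the gene. Searched on both strands in all 35116 promoter entries of 300 bases, this arrangement was present in 5, or 0.0142%. Counted by itself, the left arm was in 0.376% of entries and the right arm in 20.5%. The other 4 entries belonged to BSX and LHX3, which encode homeodomain factors, to DRD3, a dopamine receptor gene, and to GRIA2, a glutamate receptor subunit gene. None of the other 7 member entries held the left arm. The right arm was also found in the entries of INA, RCOR1, the first start of TUBB3 and the second start of REST, at a frequency of the motif that makes single matches common. SYN1 also held TGACGTCA from 159 bases before its start, a motif present in 1.85% of entries. It held no GGGCGG, which was present in 6 of the 8 member entries and in 45.0% of all entries.

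The 8 entries were all richer in G and C than the median over all entries, which was 58.7%. The GC content was 76.0% at the first start of REST, 75.3% at SYN1, 71.3% at INA and 79.0% at the second start of TUBB3. It was lowest at the first start of TUBB3, with 65.3%. GC boxes were placed 186, 121 and 31 bases before the first start of REST, whereas INA carried 4 on the opposite strand. The matches describe the letters in these windows, and nothing was measured here about binding of REST.

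The deposited unit was a whole-number count per promoter, and levels are given as CPM, counts scaled to a library of 1000000 with the TMM factors. The study describes promoters as windows of about 2 kb, so levels of different genes were compared on the assumption of equal window length. Total counts ranged from 3734519 to 10255182 per library. Mitochondrial promoters took 51.9% and 55.6% of the control totals and 74.7% and 73.8% of the overexpression totals, which left medians per nuclear promoter of 98 and 74 counts in control cells and 40 and 23 after overexpression. In bulk chromatin, fewer cells with an open promoter and less insertion per cell cannot be told apart. The promoter of MORC2 itself had 18.4 and 15.6 CPM in the control libraries and 16.3 and 14.4 CPM in the overexpression libraries. These overlapped, and a promoter count does not check a transfected coding sequence.

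REST and RCOR1 were among the accessible promoters of these cells. Promoter counts of REST were 313 and 229 in control cells and 129 and 56 after overexpression, or 22.4, 22.1, 24.1 and 19.2 CPM in that order. The overexpression libraries lay on either side of the control pair, so the groups overlapped. The control mean of 22.2 ± 0.202 CPM (SD, n = 2) was 3.14 times the median nuclear promoter and stood at percentile 79.0 of nuclear promoters. RCOR1, the scaffold that joins REST to the demethylase KDM1A and to histone deacetylases, had 486, 334, 166 and 92 counts, or 34.7, 32.2, 31.1 and 31.6 CPM. It was the most accessible of the 10 genes in every library. The overexpression pair lay just under the control pair without overlap, and the control mean of 33.5 ± 1.78 CPM stood at percentile 91.8.

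Among the neuronal genes, those of the microtubule cytoskeleton were the most and nearly the least accessible. TUBB3, the neuronal beta-tubulin, gave counts of 331 and 257 in control cells and 110 and 69 after overexpression, or 23.7, 24.8, 20.6 and 23.7 CPM. Its control mean of 24.2 ± 0.798 CPM (SD, n = 2) was 3.43 times the median nuclear promoter and exceeded that of REST. STMN2, which encodes stathmin-2, a regulator of microtubules in growing axons, had 5.65 and 5.88 CPM in the control libraries and 5.99 and 6.53 CPM in the overexpression libraries. The 2 groups did not overlap for STMN2, although all 4 values lay below the median nuclear promoter of their library, which ranged from 7.005 to 7.90 CPM.

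The intermediate filament genes lay close to the median promoter or below it. INA, alpha-internexin, had 7.08 and 7.33 CPM in the control libraries and 7.67 and 5.50 CPM in the overexpression libraries, and the groups overlapped. NEFM, the medium neurofilament chain, gave counts of 95 and 75 in control cells and 48 and 12 after overexpression, or 6.79, 7.23, 8.98 and 4.12 CPM. The 2 overexpression libraries of NEFM thus differed 2.18-fold and enclosed the control pair. Over the 2800 tested nuclear promoters with a mean count between 40 and 80, a difference between the overexpression libraries at least this large was seen for 0.964%. NEFM had the largest such difference of the 10 members, and this share does not allow for that choice. NEFH, the heavy neurofilament chain, was the least accessible of the 10 in the control, with 80 and 51 counts, and had 39 and 23 counts after overexpression. In CPM the values of NEFH were 5.72, 4.92, 7.30 and 7.90, so both overexpression libraries stood above both controls.

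Of the enzyme and synaptic genes, ENO2 and SNAP25 lay in the middle of the range and SYN1 near its lower end. ENO2, which encodes the neuronal enolase of glycolysis, had 9.94 and 8.87 CPM in the control libraries and 12.7 and 8.25 CPM in the overexpression libraries. SNAP25, a SNARE protein of vesicle fusion, had 10.1, 10.6, 10.7 and 8.93 CPM in the same order. The groups overlapped for both. SYN1 had 89, 62, 31 and 12 counts, or 6.36, 5.98, 5.80 and 4.12 CPM, and both overexpression values were below both control values. Of the other promoters with both RE1 arms, GRIA2 lay just above the median nuclear promoter of the control libraries and the rest below it. The control means were 7.61 CPM for GRIA2, 4.78 CPM for BSX, 4.37 CPM for LHX3 and 0.359 CPM for DRD3.

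**Figure D1:**
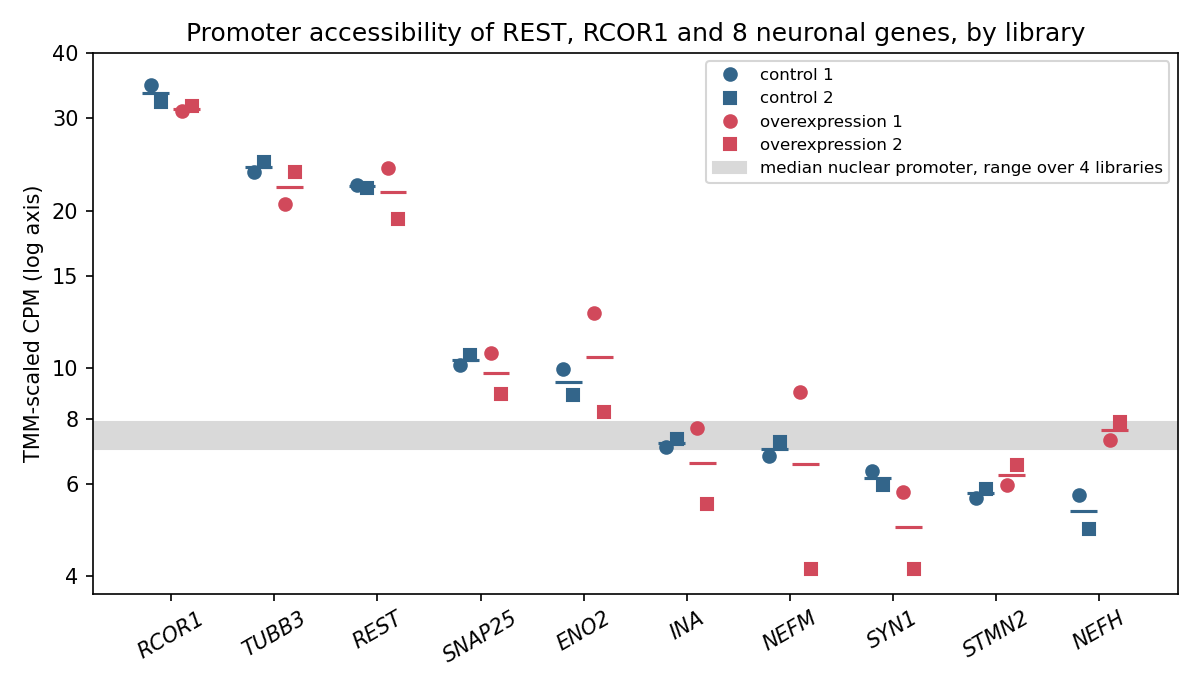
Accessibility of the 10 promoters in each library, in TMM-scaled CPM on a log axis; points are single libraries, short lines the mean of each group's 2 libraries, and the grey band the range of the median nuclear promoter over libraries. RCOR1, TUBB3 and REST lie well above the band, and the 2 overexpression libraries of NEFM lie on either side of the control pair.

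In the control libraries the order from the most to the least accessible was RCOR1, TUBB3, REST, SNAP25, ENO2, INA, NEFM, SYN1, STMN2 and NEFH. Neighbours in this order had overlapping libraries at INA and NEFM and at STMN2 and NEFH, and the other neighbours did not overlap. In the overexpression libraries RCOR1 was again first, TUBB3 overlapped REST, and ENO2 overlapped SNAP25. NEFH overlapped INA, INA overlapped NEFM and NEFM overlapped STMN2. SYN1 had the lowest mean and did not overlap STMN2, its neighbour in the order, although it overlapped NEFM and INA. In the control, 6 of the 10 genes lay above the median nuclear promoter of 7.06 CPM. The 8 neuronal genes had a median of 7.11 CPM, with 4 of 8 above it. The promoters closest to REST over the 4 libraries, by Euclidean distance of log2 CPM, were those of DLGAP5, PNPLA2 and ZNF865, at 0.0588, 0.0629 and 0.0696.

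Other genes of the same systems gave a context for these levels. The 17 other genes listed as corepressors of REST, mostly subunits and enzymes of the complexes it recruits, had a median control level of 25.5 CPM. Of these, 16 of 17 lay above the median nuclear promoter. They ran from RCOR3, a paralogue of RCOR1, at 53.4 CPM to SIN3B at 5.67 CPM. Further REST target genes known from textbooks had a median of 8.17 CPM, with 11 of 20 above the median promoter, from CELSR3, a cadherin, at 58.0 CPM to the sodium channel gene SCN2A at 1.11 CPM. Accessible and little accessible promoters were thus both present among genes known as REST targets. In the neuronal cytoskeleton list the median was 11.3 CPM and 13 of 19 genes lay above the median promoter, and in the presynaptic list it was 11.8 CPM and 16 of 20. STMN1, a stathmin used in many dividing cells, was the highest of the cytoskeleton list at 28.2 CPM, and DCX, doublecortin, the lowest at 0.900 CPM.

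Defining markers of neurons had a median of 3.08 CPM, with only 3 of 10 above the median promoter, and glial markers 3.18 CPM, with 0 of 8 above it. Kidney epithelial markers had a median of 3.03 CPM, with 1 of 12 above the median promoter, although the line came from kidney. Neural progenitor markers had 7.97 CPM and markers of chromaffin and sympathetic cells 6.44 CPM, each with 5 of 10 genes above. Blood and liver markers were lowest at 0.797 CPM and 10 genes used in all cells highest at 31.7 CPM. No list gene was at 0 in any library, so no defining marker was without counts. The lists share some genes with each other, and these medians describe 2 libraries of 1 line, with no test between lists.

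**Figure D2:**
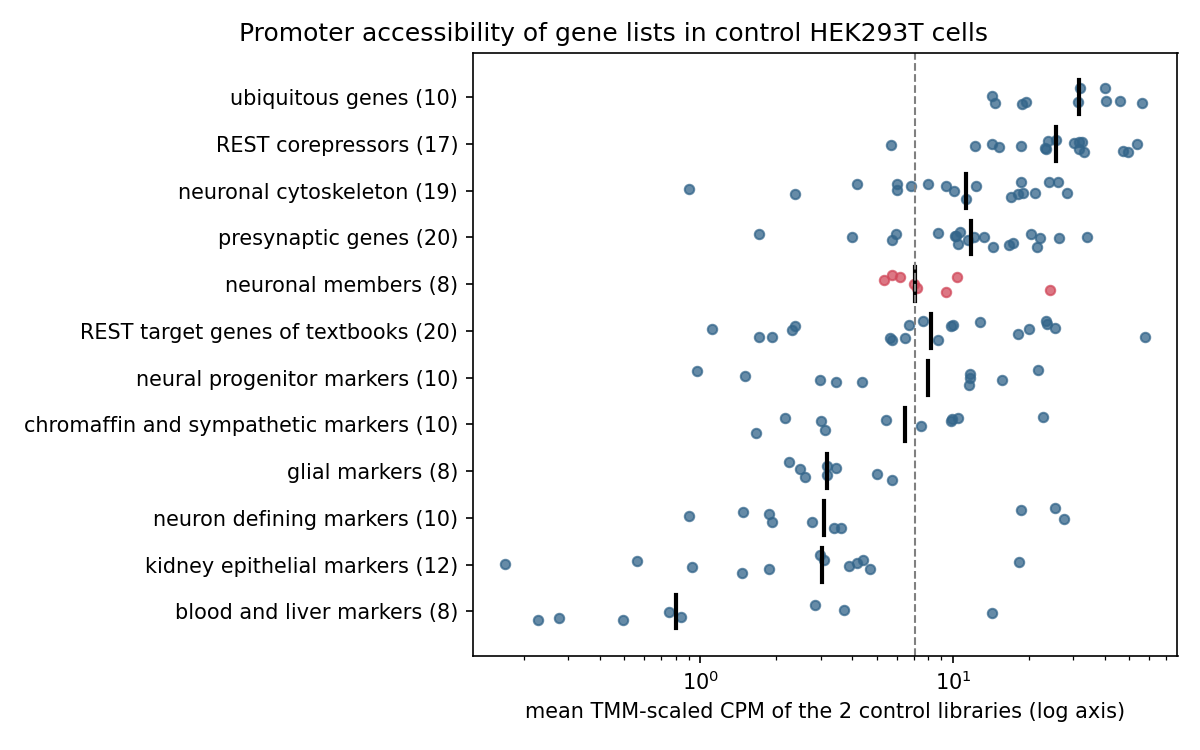
Mean CPM of the 2 control libraries on a log axis for each gene of 12 groups; points are genes, black bars the group medians, the dashed line the median nuclear promoter, and numbers in brackets the genes in the table. The 8 neuronal members lie around the dashed line, with TUBB3 at 24.2 CPM apart from the rest, while REST corepressors lie almost all above it.

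The comparison of the groups asks whether MORC2 overexpression changed accessibility. By edgeR's quasi-likelihood test over 23407 promoters, 0 of the 10 members passed an adjusted p of 0.05, where 2.47% of all tested promoters did, 1.16% higher and 1.31% lower after overexpression. This split of 272 higher and 307 lower promoters depended on the scaling and the test, with 384 and 109 under upper quartile scaling and 405 and 315 by limma-voom. At an unadjusted p under 0.05 there was 1 member, NEFH, against 17.2% of all promoters. By limma-voom 0 members passed as well, and DESeq2 gave 0 without its independent filtering and no adjusted p for any member with it. The groups did not overlap for 4 members, NEFH and STMN2 being higher and RCOR1 and SYN1 lower after overexpression, and 49.7% of all tested promoters had groups that did not overlap. The 10 log2 fold changes had a median of −0.02, and all tested promoters one of 0.0095.

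REST itself had a log2 fold change of 0.0056 (95% interval −0.26 to 0.27, adjusted p = 0.988), the closest to 0 of the 10. RCOR1 had −0.10 (−0.34 to 0.13, adjusted p = 0.703). Its interval was the narrowest, since its counts were the highest. TUBB3 had −0.15 (−0.42 to 0.12, adjusted p = 0.591), and −0.23 to −0.027 with 1 library left out. Differences inside these bounds were not detectable at this depth.

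NEFH had the largest difference of the 10. Its mean went from 5.32 ± 0.565 CPM in the control to 7.60 ± 0.429 CPM after overexpression (SD, n = 2 each), which by edgeR is 0.48 ± 0.239 as log2 fold change with its SE (95% interval 0.016 to 0.95, adjusted p = 0.280). It therefore did not pass the test. With promoters divided by abundance into 4 classes of equal size, the median log2 fold change was 0.13 in the class of NEFH, 0.39 in the least abundant class and −0.13 in the most abundant, so low promoters lay higher as a whole in the shallower overexpression libraries. The part of this trend in the value of NEFH was not tested beyond a loess scaling on abundance, under which its log2 fold change was 0.31.

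The other neurofilament genes gave no common direction. NEFM had a log2 fold change of 0.05 (95% interval −0.41 to 0.50, adjusted p = 0.938), and without the first overexpression library it was −0.76 (adjusted p = 0.364). Without the first control library it was −0.0079, so its sign rested on single libraries. INA had −0.06 (−0.52 to 0.40, adjusted p = 0.921). STMN2, which lay on the same side as NEFH, had 0.10 (−0.39 to 0.60, adjusted p = 0.872), where the median of its abundance class was 0.13.

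SYN1, the promoter with the RE1 shown above, had the lowest log2 fold change, −0.25 (−0.77 to 0.27, adjusted p = 0.656). It was −0.59 without the first overexpression library, −0.095 without the second and −0.47 with loess. Its mean was 6.17 ± 0.270 CPM in the control and 4.96 ± 1.19 CPM after overexpression (SD, n = 2 each). GRIA2, BSX and LHX3 had log2 fold changes of −0.22, 0.30 and 0.30, with adjusted p by edgeR between 0.581 and 0.674, and DRD3 had too few counts to be tested. Over all 89 nuclear genes of the table with the left arm in a promoter entry, 76 were tested, 1 rose, 2 fell, and the median log2 fold change was −0.02. The 17002 tested nuclear genes with any promoter entry had a median of −0.01, with 151 rising and 250 falling.

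ENO2 had a log2 fold change of 0.23 (−0.15 to 0.60, adjusted p = 0.570), which was −0.20 without the first overexpression library. SNAP25 had −0.04 (−0.43 to 0.34, adjusted p = 0.934). The intervals of these low promoters were wider than that of RCOR1, and their overexpression counts were as low as 24 for ENO2 and 12 for SYN1 and NEFM.

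**Figure D3:**
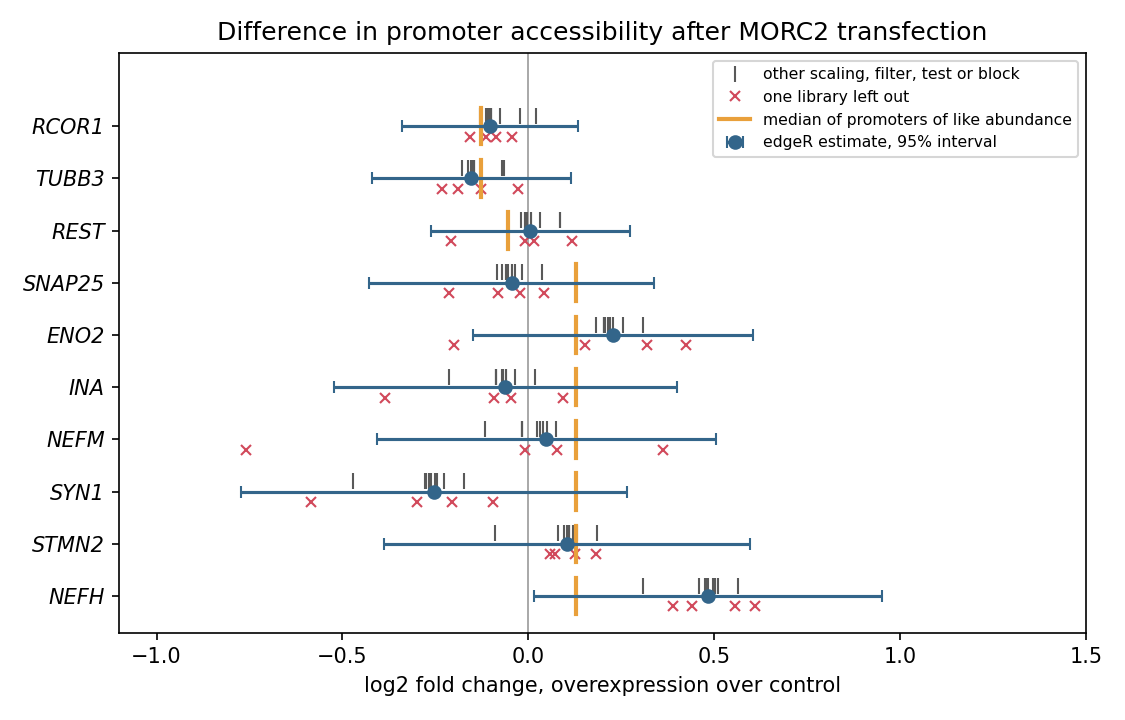
Log2 fold change of each promoter, overexpression over control; blue points and bars are edgeR estimates with 95% intervals, orange lines the median of the abundance class, grey ticks other scalings, filters, tests and the replicate block (library totals left out), and red crosses fits with 1 library left out. All intervals but that of NEFH include 0, and the crosses of NEFM reach from −0.76 to 0.36.

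Of the alternatives run, library totals were the only one that put members past the adjusted threshold. These totals count the mitochondrial promoters and put 9 of the 10 members past the threshold, all lower, but the median over all tested promoters was then −0.79 on the log2 scale and 16325 promoters were called. REST had −0.80 and RCOR1 −0.90 under that scaling, close to the median promoter. NEFH, at −0.31, was the one member that did not pass.

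**Figure D4:**
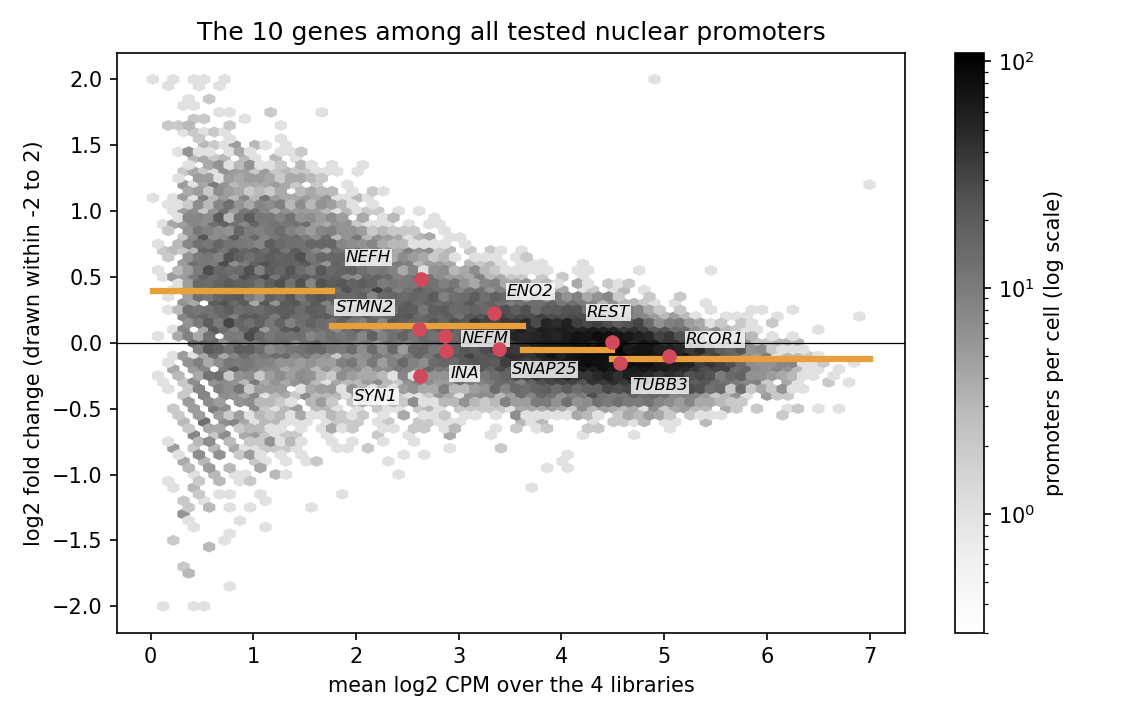
Log2 fold change against mean log2 CPM over the 4 libraries for tested nuclear promoters (grey cells, darker where more promoters fall) and the 10 genes (red); orange lines are medians of the 4 abundance classes, and values beyond the axis are drawn at its ends. The 10 genes lie inside the cloud of all promoters, whose class medians fall from 0.39 to −0.13 as abundance rises.

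In the wider lists, no gene of the neuronal or REST systems passed the test. Of the 17 REST corepressors 0 rose and 0 fell. At an unadjusted p under 0.05 there were 7, all lower, against 17.2% of all tested promoters in either direction. Among the 7 were the deacetylase HDAC2, the scaffold SIN3A, the complex subunit ZMYM2 and the phosphatase CTDSPL. The list of corepressors had a median log2 fold change of −0.16, where the most abundant class of promoters had −0.13. The 10 ubiquitous genes of similar abundance had −0.12, with 4 at an unadjusted p under 0.05, PPIA, YWHAZ and PGK1 lower and B2M higher. ZMYM2 was the lowest, with 17.2 and 20.0 CPM in the control and 14.6 and 10.3 CPM after overexpression (log2 fold change −0.50, adjusted p = 0.0649 by edgeR).

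In the neuronal cytoskeleton list 0 of 18 tested genes passed, with a median of 0.05. The gene nearest to the threshold there was MAP2, a dendritic microtubule protein, with 18.4 and 18.7 CPM in the control and 13.7 and 11.7 CPM after overexpression. Its groups did not overlap, and by edgeR the log2 fold change with its SE was −0.52 ± 0.165 (adjusted p = 0.0518). It fell past the threshold with no filter (adjusted p = 0.0440) and without mitochondrial promoters (adjusted p = 0.0454). In the presynaptic list 0 of 20 passed and SV2A, a vesicle glycoprotein, was the only gene at an unadjusted p under 0.05, with a log2 fold change of 0.60 (adjusted p = 0.228). In the REST target list 0 of 20 passed and this gene was KCNH2, a potassium channel, at 0.36 (adjusted p = 0.112, and 0.0417 with upper quartile scaling). The medians were 0.02 and −0.08.

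Markers of neurons, glia, neural progenitors and chromaffin cells held 0 genes that passed, of 9, 8, 10 and 10 tested. RBFOX3, the neuronal nuclear antigen NeuN, had 3.57 and 3.67 CPM in the control and 4.86 and 9.28 CPM after overexpression, while ELAVL3, a neuronal RNA-binding protein, had 23.2 and 27.7 CPM and then 19.3 and 21.3 CPM. Their log2 fold changes were 0.84 and −0.33, with adjusted p by edgeR of 0.0694 and 0.176. Of the 10 neuron markers RBFOX3 was the only one with both overexpression libraries above the control pair, and 5 had both below it, ELAVL3, ELAVL4, MAP2, GAD2 and SLC17A6. Groups without overlap, in either direction, were seen for 49.7% of all tested promoters. Over the 9 neuron markers tested the median log2 fold change was −0.33. Without the first overexpression library RBFOX3 had 1.36 (adjusted p = 0.0434). Outside the neural lists 2 genes rose. SLC34A1, a phosphate transporter of the kidney, had 4.79 and 4.63 CPM in the control and 8.04 and 12.03 CPM after overexpression (log2 fold change 1.01 ± 0.228 SE, adjusted p = 0.00414). TTR, the transthyretin gene of liver and choroid plexus, had 0.929 and 0.579 CPM and then 2.99 and 3.09 CPM (1.94 ± 0.461, adjusted p = 0.00519). TTR rested on 13 and 6 counts in the control and 16 and 9 after overexpression, passed the filter on low counts only through the overexpression group, and was not tested with at least 10 counts in every library. The median log2 fold change was 0.37 over the 9 of 12 kidney epithelial markers tested and 0.58 over the 4 of 8 blood and liver markers tested, TTR among them, and the least abundant class of promoters had 0.39. Summed over the 12 kidney epithelial markers the levels were 48.5 and 44.5 CPM in the control and 60.6 and 60.8 CPM after overexpression. Sums of the blood and liver markers and of the neural progenitor markers were also higher without overlap. Those of the REST corepressors, the neuron markers and the ubiquitous genes were lower without overlap. The sum over all nuclear promoters was lower without overlap as well. It was 352306 and 354465 CPM in the control and 341754 and 336683 CPM after overexpression. The 8 neuronal members summed to 75.3, 75.6, 79.7 and 69.1 CPM, with overlap. Neither SLC34A1 nor TTR passed under the loess scaling on abundance, where 0 list genes did, or by DESeq2. SLC34A1 also lost its call without the first control or the second overexpression library, and TTR without the second control or the first overexpression library.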

How the data were processed

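Omni-ATAC libraries of HEK293T cells, 2 per group, were analysed from 1 table of whole-number counts per promoter. Per the study's methods the authors trimmed reads, mapped these to the CHM13 assembly (telomere-to-telomere) by Bowtie2 and took out duplicates with Picard, leaving proper pairs with a high mapping quality. These deposited counts are not normalized. The peak lists were not used here, since no annotation of that assembly was given. Gene identifiers were matched to symbols for 28763 of 28775 promoters. The 12 unnamed promoters stayed in the totals, as did the 37 mitochondrial ones.

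Promoters were filtered with filterByExpr and tested with edgeR 4.0.16 (TMM, quasi-likelihood F-test, Benjamini-Hochberg adjustment, threshold 0.05) in R 4.3.3. CPM, the mean and the SD were computed from the counts. Intervals of fold changes are the estimate with its 95% bounds. In the edgeR fit the variance of 100% of promoters was taken from a trend over abundance. A promoter's own spread between libraries thus did not enter its p-value, SE or interval. DESeq2 1.42.0 and limma 3.58.1 (voom), other scalings and filters, a replicate block and fits without each library were alternatives. Replicate pairs differed beyond counting noise (chi-square per degree of freedom 1.252 in the control pair and 1.124 in the overexpression pair). The 10 members and all lists were chosen with earlier results of these data known. Of each list, genes past the threshold and those highest or lowest in the control were named by rule. GRIA2, BSX, LHX3 and DRD3 were named for their sequence, and genes at an unadjusted p under 0.05 after their values were seen. Motifs were searched in RefSeq promoter entries from 250 bases before to 50 after each start.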

Additional observations from a re-analysis of the deposited data

How the results depend on the processing

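With 2 libraries a group and 12 to 486 counts per member promoter, differences within the intervals given were not detectable. The number of members past the threshold was 0 under every alternative except library totals (9, all lower), and was 1 at an unadjusted p. The number of changed promoters, 579 by edgeR, was 16325 with library totals, 71 with a loess scaling on abundance, 368 with at least 10 counts in every library, 108 by DESeq2, 52 by DESeq2 without independent filtering (41 higher and 11 lower, chosen after seeing the data), and 115 to 207 with 1 library left out (150 and 207 without the first or second control, 117 and 115 without the first or second overexpression library). List genes past the threshold, 2 by edgeR, were 93 with library totals, 0 with loess, 1 with at least 10 counts, 0 by either form of DESeq2, and 1 to 2 with 1 library left out. With its independent filtering DESeq2 gave an adjusted p to 2078 promoters, against 23407 without it, so its 108 calls refer to that smaller set. The median control level of the members was 8.30 CPM and 23.5 when scaled to nuclear counts alone.

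Signs near 0 turned. REST had log2 fold changes of −0.80 with library totals, −0.020 with no filter, −0.0079 by either form of DESeq2, −0.0026 with the replicate block, −0.0037 without mitochondrial promoters, and −0.21 to 0.12 with 1 library left out. RCOR1 had 0.020 with loess. NEFM had −0.76 with library totals, −0.12 with loess, −0.016 by either form of DESeq2, −0.017 by limma-voom, and −0.76 to 0.36 with 1 library left out. With library totals NEFH had −0.31, STMN2 −0.69 and ENO2 −0.58. STMN2 had −0.089 with loess, and ENO2 had −0.20 to 0.43 with 1 library left out. INA had 0.018 with the upper quartile and −0.39 to 0.094 with 1 library left out, and SNAP25 had 0.036 and −0.21 to 0.043. The construction of the library totals explains their shift, as they include the mitochondrial counts; the cause of the others was not tested.

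Same-numbered libraries of the groups were not taken as pairs (correlation of their deviations 0.0503 over 14976 promoters). The replicate block gave 483 changed promoters, 0 members and 2 list genes.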
